A study of Mus musculus with 12 samples.

Results

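The genes described are 10 of the 41128 in the deposited tables: the receptors and ligands of the vascular endothelial growth factor (VEGF) and angiopoietin system. They were taken by name: Kdr, Flt1 and Flt4 (VEGF receptors), Nrp1 and Nrp2 (co-receptors), Tek and Tie1 (the TIE receptors), and Vegfa, Vegfc and Angpt2 (ligands). All 10 passed the filter on low counts. The 12 libraries hold RNA of mouse cultures in which endothelium with blood potential, called haemogenic, gives rise to blood cells. The cells were derived from embryonic stem cells, a derivative of the Ainv18 line in which doxycycline (Dox) switches on Sox7. SOX7 is a transcription factor of early endothelium, and the series asks how it acts on RUNX1 target genes during the change from endothelium to blood.

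The study has 6 groups of 2 libraries each: cells kept without Dox for 6, 12 or 24 h, and cells kept with 1 µg/ml Dox for 6, 12 or 24 h. All groups carried the inducible Sox7. All cells came from day 3.5 embryoid bodies, were sorted for FLK1 and then grew for 48 h in liquid blast culture. That medium held 5 ng/ml VEGF, 10 ng/ml IL6, 10% serum and 15% conditioned medium of D4T cells, so every library comes from cells already exposed to added VEGF. FLK1 is the protein that Kdr encodes, so the starting cells of all groups were chosen by the product of 1 of the 10 genes. Cells with Dox but without an inducible Sox7 were not analysed here, so an effect of Dox itself and an effect of SOX7 cannot be told apart. The labels do not say whether the 2 replicates of a group were grown separately, so the p-values speak only for the spread between these libraries, which may be technical.

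VEGF ligands bind receptor tyrosine kinases on endothelial cells. KDR (VEGF receptor 2) carries most of the signal for growth and survival, FLT1 (VEGF receptor 1) binds VEGFA tightly and acts largely as a trap in the embryo, and FLT4 (VEGF receptor 3) is the receptor of VEGFC and later marks lymphatic vessels. Neuropilins are co-receptors with short intracellular parts that also bind class 3 semaphorins. TEK, also called TIE2, is the receptor of the angiopoietins, TIE1 is its partner, and ANGPT2 is a ligand that endothelial cells make themselves. Kdr is needed for the earliest vessels and blood islands of the mouse embryo, and Tek for the later remodelling of vessels.

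Library totals ran from 13485804 to 35250074 counts, with 1 library of at most 15429846 and 1 of at least 27516106 counts in each group. Sox7 stood at 14.5 to 22.8 RPKM in the 6 untreated libraries and at 86.3 to 106 RPKM in the 6 Dox libraries (RPKM is the read count scaled by gene length and by library size). All 8 endothelial markers listed were present, from Emcn at 1.03 to 1.503 RPKM to Cdh5 at 116 to 180 RPKM. The 8 mural and mesenchymal markers summed to 2710 to 3635 RPKM, most of it Acta2 (2069 to 2742 RPKM) and Tagln (321 to 606 RPKM). Such cells in the cultures, or such genes in the endothelial cells, cannot be told apart in bulk RNA. The 8 blood markers summed to 115 to 128 RPKM in untreated cells at 24 h and to 35.2 to 38.8 RPKM with Dox, and the 8 macrophage markers to 26.7 to 27.8 RPKM and to 17.4 to 18.1 RPKM. Hba-a1 was the largest part of the blood sum, at a mean of 79.4 RPKM without and 17.7 RPKM with Dox at 24 h. At 6 and 12 h the blood sum was lower with Dox too, but the macrophage sum was higher. Rac2 went against the blood sum at 12 h, with a mean of 0.737 RPKM without and 1.87 RPKM with Dox. The macrophage markers summed to 13.3 to 13.8 RPKM without and 15.7 to 16.8 RPKM with Dox at 6 h. At 12 h they summed to 15.3 to 16.8 RPKM without and 17.6 to 20.2 RPKM with Dox. The rise lay largely in Lyz2, with means of 3.53 and 6.48 RPKM without and with Dox at 6 h. At 12 h its means were 4.63 and 7.59 RPKM. Cx3cr1 went the other way, from 0.555 to 0.289 RPKM at 6 h and from 1.09 to 0.715 RPKM at 12 h. The median log2 fold change of the 8 macrophage markers was 0.13 at 6 h and -0.31 at 12 h. In bulk libraries fewer cells of a type and less RNA per cell cannot be told apart.

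With Dox, the ligand genes and most receptor genes were higher, and the number that passed the test grew with time. At 6 h, 2 of the 10 genes were higher (Vegfa and Tie1) and 8 were not called, against 1.54% of all 15347 tested genes called (0.821% higher and 0.717% lower). At 12 h, 6 of 10 were higher (Vegfa, Vegfc, Nrp2, Tie1, Flt1 and Tek) and 4 were not called, against 6.76% of all tested genes (3.26% higher and 3.51% lower). At 24 h, 7 of 10 were higher (the same 6 and Angpt2), Nrp1 was lower and Kdr and Flt4 were not called, against 11% of all tested genes (4.5% higher and 6.52% lower). A call is an adjusted p under 0.05 in edgeR's quasi-likelihood F test, with the Benjamini-Hochberg adjustment over all tested genes, and every adjusted p below comes from it unless another tool is named. In CPM (counts scaled to library size) both Dox libraries lay on the same side of both untreated libraries for 9, 8 and 9 of the 10 genes at 6, 12 and 24 h, against 39.4%, 48.9% and 49.6% of all tested genes. The median log2 fold change of the 10 genes was 0.14, 0.21 and 0.33 at 6, 12 and 24 h, while that of all tested genes was 0.01, -0.01 and -0.01. Neither 6 h call was kept when any 1 of the 4 libraries of 6 h was left out. Limma on log2(RPKM + 0.1) or log2(RPKM + 1) called 0 of the 10 genes at 6 h and 2 at 12 h, Vegfa and Vegfc.

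**Figure D1:**
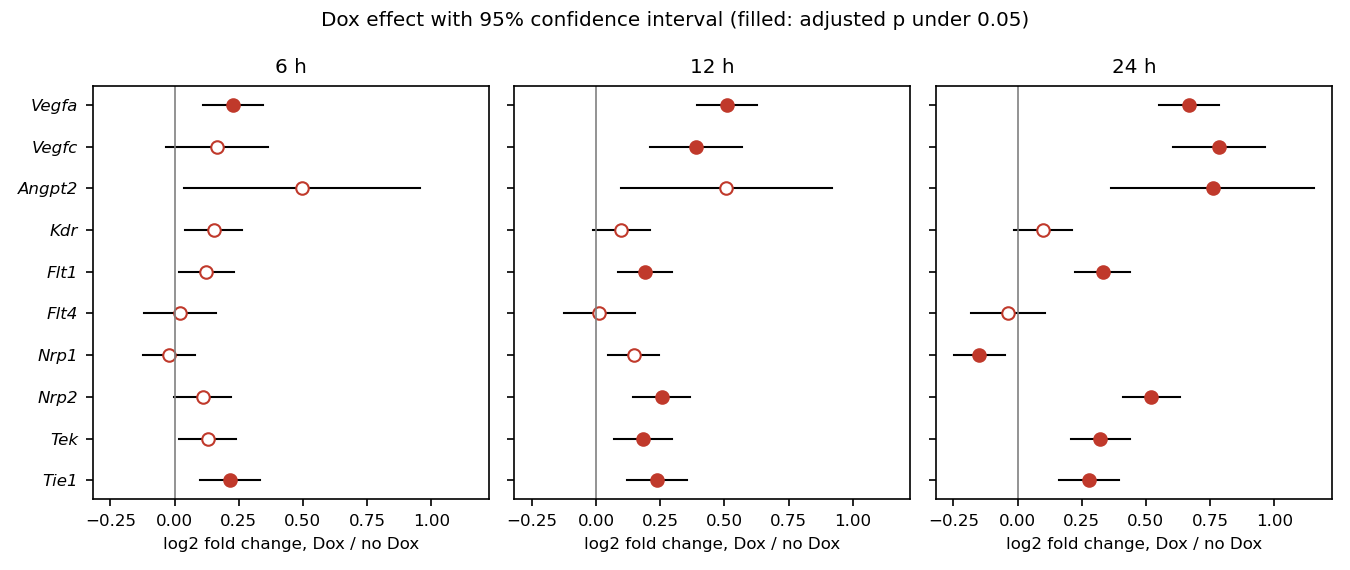
Log2 fold change of each gene, Dox over no Dox, at 6, 12 and 24 h (x axis, log2 units). Circles are estimates from edgeR, filled where the adjusted p was under 0.05, and lines are 95% confidence intervals. The 3 ligands have the highest estimates at 24 h, from 0.67 to 0.78, and Flt4 and Kdr have intervals that include 0 at 12 and 24 h.

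The promoters of the 6 genes that were called higher with Dox at both 12 and 24 h are shown. RefSeq (GRCm38.p6) gave a promoter for 9 of the 10 genes. Each sequence is the 250 bases before the RefSeq start, 5′ to 3′ on the gene's strand. Capitals mark 3 short motifs on either strand: ACAAT, a core that SOX factors bind, ACAAAG, a core that SOX and TCF factors share, and GGAAG, a core that ETS factors bind. No 2 of these motifs overlapped in the windows shown. The windows are chr4:94739039-94739288 (plus strand) for Tek, chr4:118489850-118490099 (minus) for Tie1, chr5:147726012-147726261 (minus) for Flt1, chr1:62703067-62703316 (plus) for Nrp2, chr17:46032378-46032627 (minus) for Vegfa and chr8:54077282-54077531 (plus) for Vegfc.
Tek: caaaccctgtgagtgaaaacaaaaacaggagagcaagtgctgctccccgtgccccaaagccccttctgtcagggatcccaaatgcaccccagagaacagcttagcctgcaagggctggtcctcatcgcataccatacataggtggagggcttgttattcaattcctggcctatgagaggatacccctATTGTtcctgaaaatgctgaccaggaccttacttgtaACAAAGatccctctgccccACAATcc
Tie1: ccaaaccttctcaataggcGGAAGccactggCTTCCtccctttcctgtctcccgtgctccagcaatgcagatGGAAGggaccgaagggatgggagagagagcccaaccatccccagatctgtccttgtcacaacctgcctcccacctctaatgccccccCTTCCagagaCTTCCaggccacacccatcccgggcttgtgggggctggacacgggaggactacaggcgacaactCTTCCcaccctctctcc
Flt1: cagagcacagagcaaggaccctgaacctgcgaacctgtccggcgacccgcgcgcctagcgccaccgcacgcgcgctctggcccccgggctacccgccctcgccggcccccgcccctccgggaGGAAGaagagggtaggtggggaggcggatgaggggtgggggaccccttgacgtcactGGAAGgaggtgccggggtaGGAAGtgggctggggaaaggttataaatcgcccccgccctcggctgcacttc
Nrp2: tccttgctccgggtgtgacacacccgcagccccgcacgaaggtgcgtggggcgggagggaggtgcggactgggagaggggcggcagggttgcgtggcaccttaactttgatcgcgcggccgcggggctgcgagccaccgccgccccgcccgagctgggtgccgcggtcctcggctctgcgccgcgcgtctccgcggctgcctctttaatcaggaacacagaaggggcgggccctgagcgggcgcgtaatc
Vegfa: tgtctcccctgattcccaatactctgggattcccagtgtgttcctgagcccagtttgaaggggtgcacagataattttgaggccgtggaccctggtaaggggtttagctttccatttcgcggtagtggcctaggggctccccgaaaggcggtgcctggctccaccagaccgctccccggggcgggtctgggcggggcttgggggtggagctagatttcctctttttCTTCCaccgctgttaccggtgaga
Vegfc: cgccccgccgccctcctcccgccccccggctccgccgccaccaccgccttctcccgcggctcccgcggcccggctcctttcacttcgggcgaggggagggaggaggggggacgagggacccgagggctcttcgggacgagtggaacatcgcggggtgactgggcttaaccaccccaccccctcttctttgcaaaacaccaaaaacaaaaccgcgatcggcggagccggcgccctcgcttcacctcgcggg

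Of these 6, and of all 9 promoters found, only that of Tek held the letters of ACAAT or ACAAAG. It had 2 matches to ACAAT and 1 to ACAAAG, and 27.7% and 16.5% of 32851 mouse promoter windows of the same length hold at least 1. Tie1 had 6 matches to GGAAG, Flt1 3 and Vegfa 1, and Tek, Nrp2 and Vegfc had none, against at least 1 in 64.1% of windows. Among the genes not higher with Dox, Nrp1 had 3 matches to GGAAG and Kdr and Flt4 had 1 each. TGNGGT, a loose form of a RUNX core in which N is any base, was found once each in Flt1, Nrp1, Tek and Vegfc. It was in 40.1% of windows. The letters matched were TGCGGT in Flt1 and TGGGGT in Nrp1, Tek and Vegfc, on either strand. ACGTG, 1 form of the core of hypoxia elements, was in none of the 9 windows, against 16.6% of windows. The form GCGTG was not counted, and some of the windows hold it, such as that of Nrp2. A match is a description of these letters and not a binding site, and their absence says nothing of enhancers elsewhere. The RefSeq start of Tie1 lies 212 bases and that of Flt4 416 bases from the gene start in the deposited tables.

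Vegfa (ENSMUSG00000023951, chromosome 17, 46016993 to 46032377, minus strand, GRCm38 as in all coordinates of the tables) encodes the ligand of KDR and FLT1. Its levels without Dox were 29.7 and 30.7 RPKM at 6 h, 26.0 and 25.0 RPKM at 12 h, and 23.2 and 20.995 RPKM at 24 h. With Dox they were 34.5 and 35.1, then 36.6 and 36.0, then 33.5 and 35.8 RPKM. Each Dox library was above every untreated library of its hour, and the untreated level went down with time while the Dox level stayed between 33.5 and 36.6 RPKM. The log2 fold change was 0.23 ± 0.06 at 6 h (SE, here and below; adjusted p = 0.029), 0.51 ± 0.06 at 12 h (3.3e-07) and 0.67 ± 0.06 at 24 h (5.4e-10). At 6 h, 6 of 13 alternative fits did not call it, those with limma and those lacking 1 library of 6 h (log2 fold changes from 0.19 to 0.24 and adjusted p from 0.13 to 0.34), whereas 13 of 13 called it at 12 and at 24 h. The Dox effect at 24 h exceeded that at 6 h by 0.44 ± 0.08 on the log2 scale (adjusted p = 0.0013).

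Vegfc (ENSMUSG00000031520, chromosome 8, 54077532 to 54186454, plus strand), the ligand gene of FLT4, had the largest log2 fold change of the 10 genes at 24 h. It stood at 10.8 and 11.2 RPKM without Dox and 12.2 and 12.1 RPKM with Dox at 6 h. At 12 h the levels were 14.5 and 14.9 RPKM without and 19.7 and 18.9 RPKM with Dox. At 24 h they were 13.7 and 14.1 RPKM without and 21.7 and 26.5 RPKM with Dox, so the Dox libraries were higher at each hour and their spread was widest at 24 h. The log2 fold change was 0.17 ± 0.10 at 6 h (adjusted p = 0.61), 0.39 ± 0.09 at 12 h (0.0052) and 0.78 ± 0.09 at 24 h (9.4e-08). The 12 h call was lost without Dox replicate 1 of 12 h (0.36, adjusted p = 0.085). Between 6 and 24 h the effect grew by 0.62 ± 0.13 (adjusted p = 0.0059), and such a change was called for 3 of the 10 genes, all 3 upward, against 2.08% of all tested genes (0.626% higher and 1.45% lower). Untreated cells also gained Vegfc between 6 and 12 h (0.42 ± 0.09, adjusted p = 0.0046), a call lost without untreated replicate 1 of 6 h (0.38, adjusted p = 0.11) or replicate 2 of 12 h (0.39, adjusted p = 0.062).

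Angpt2 (ENSMUSG00000031465, chromosome 8, 18690263 to 18741562, minus strand), the endothelial ligand of TEK, was the gene with the lowest level, with 29 to 237 counts per library. Untreated libraries held 0.919 and 0.536 RPKM at 6 h, 0.913 and 1.10 RPKM at 12 h, and 0.908 and 1.33 RPKM at 24 h. Dox libraries held 1.06 and 1.09, then 1.41 and 1.57, then 1.92 and 2.01 RPKM, above the untreated libraries at each hour. The log2 fold changes were 0.50 ± 0.23 (adjusted p = 0.43), 0.51 ± 0.20 (0.14) and 0.76 ± 0.19 (0.0072), so the call was made at 24 h only. Leaving out untreated replicate 1 of 24 h ended that call (0.57, adjusted p = 0.13), as did limma on log2(RPKM + 0.1) (0.78, adjusted p = 0.070). Angpt2 lies within Mcph1, a gene on the opposite strand with 429 to 1331 counts per library, and the strand setting of the counting is not given in the sources used here. Mcph1 itself had log2 fold changes of 0.06, -0.08 and -0.04 at the 3 hours, with adjusted p-values of 0.89, 0.62 and 0.85.

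**Figure D2:**
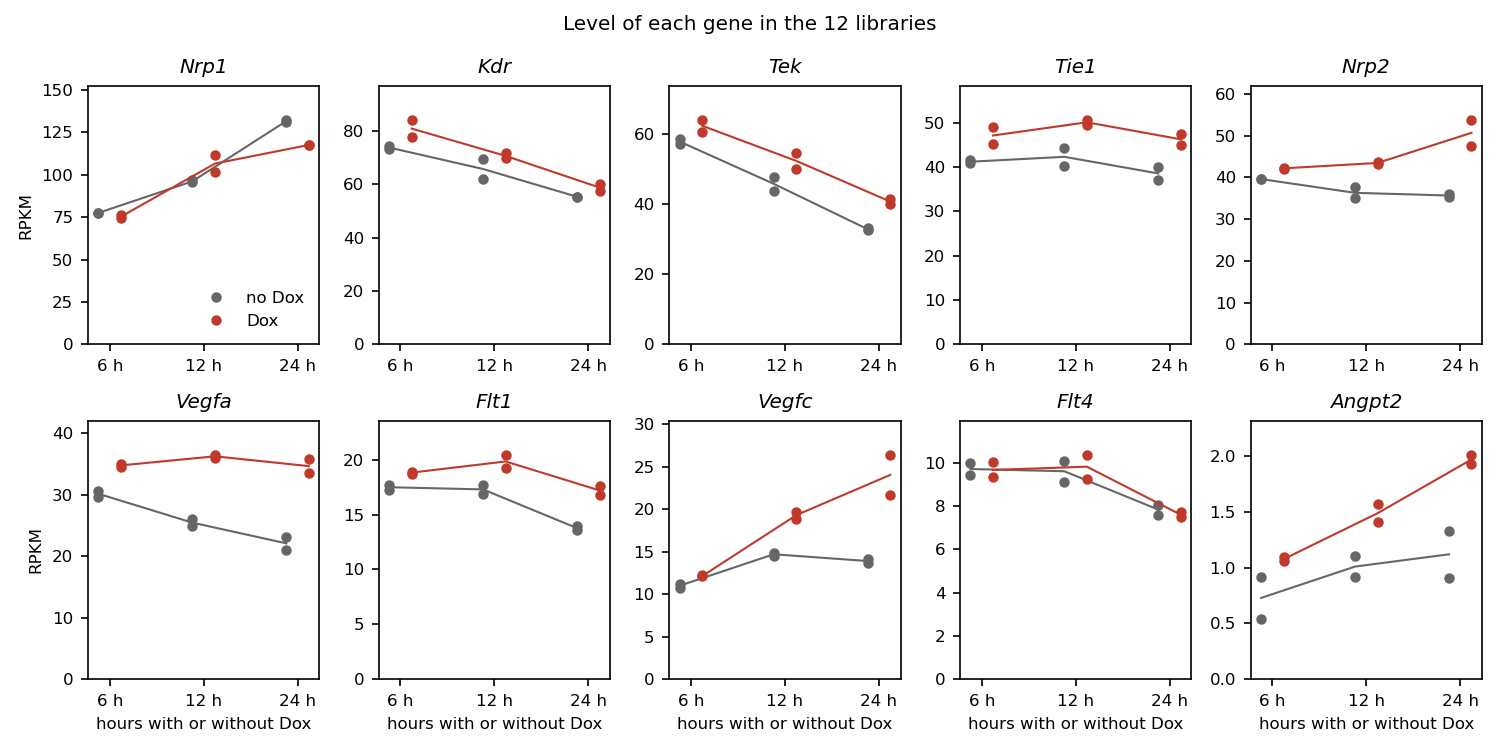
RPKM of each of the 10 genes (y axis, from 0) at 6, 12 and 24 h (x axis), with points for single libraries, grey without and red with Dox, and lines through the means of 2 libraries. Vegfa, Vegfc, Nrp2, Tie1, Tek, Flt1 and Angpt2 are higher with Dox in both libraries at each hour, Flt4 overlaps at each hour, and Nrp1 goes up with time in both series.

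Among the receptors, Kdr (ENSMUSG00000062960, chromosome 5, 75932827 to 75978458, minus strand) was the most abundant VEGF receptor gene. Its levels without Dox were 73.4 and 74.3 RPKM at 6 h, 61.8 and 69.7 RPKM at 12 h, and 55.4 and 55.4 RPKM at 24 h. With Dox they were 77.6 and 84.3, then 69.7 and 71.7, then 57.6 and 60.0 RPKM. At 12 h the higher untreated and the lower Dox library were level, and at 6 and 24 h the groups did not overlap. None of the 3 differences was called, with log2 fold changes of 0.15 ± 0.05 (adjusted p = 0.22), 0.10 ± 0.05 (0.33) and 0.10 ± 0.05 (0.31). The 95% confidence interval at 24 h ran from -0.01 to 0.21, which leaves room for a rise of that size. None of 13 alternative fits called Kdr at any of the 3 hours.

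Flt1 (ENSMUSG00000029648, chromosome 5, 147561604 to 147726011, minus strand), which encodes the decoy-like VEGF receptor 1 and its soluble form, differed from Kdr in its calls. Untreated libraries held 17.7 and 17.3 RPKM at 6 h, 16.9 and 17.7 RPKM at 12 h, and 13.6 and 14.0 RPKM at 24 h. Dox libraries held 18.7 and 18.9, then 19.2 and 20.5, then 16.8 and 17.6 RPKM. The groups did not overlap at any hour, and the gap was widest at 24 h. The log2 fold changes were 0.12 ± 0.05 (adjusted p = 0.36), 0.19 ± 0.05 (0.021) and 0.33 ± 0.05 (2.8e-05). At 12 h leaving out untreated replicate 1 (0.16, adjusted p = 0.16) or Dox replicate 2 (0.15, adjusted p = 0.18) ended the call, and 13 of 13 fits called the gene at 24 h. Counts per gene do not tell the soluble from the membrane form.

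Flt4 (ENSMUSG00000020357, chromosome 11, 49609263 to 49652739, plus strand) showed no call with Dox. Its 6 untreated libraries ran from 7.61 to 10.1 RPKM and its 6 Dox libraries from 7.48 to 10.4 RPKM, and the groups overlapped at each hour. The log2 fold changes were 0.02 ± 0.07, 0.01 ± 0.07 and -0.04 ± 0.07, and the 95% confidence interval at 24 h ran from -0.18 to 0.10. While its ligand gene Vegfc was 1.72-fold higher with Dox at 24 h, the fitted ratio for Flt4 was 0.974. In untreated cells Flt4 fell between 12 and 24 h by 0.29 ± 0.07 on the log2 scale (adjusted p = 0.0026), a call lost without untreated replicate 2 of 12 h (-0.20, adjusted p = 0.12).

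The neuropilin genes parted at 24 h. Nrp1 (ENSMUSG00000025810, chromosome 8, 128359073 to 128505462, plus strand) had the highest RPKM of the 10 genes in 5 of the 6 groups, second to Kdr with Dox at 6 h. It stood at 77.4 and 77.7 RPKM without and 76.2 and 74.5 RPKM with Dox at 6 h. At 12 h it stood at 96.8 and 95.6 RPKM without and 111 and 102 RPKM with Dox, and at 24 h at 132.5 and 130.9 RPKM without and 117.6 and 117.7 RPKM with Dox. The log2 fold change was -0.02 ± 0.05 (adjusted p = 0.95), then 0.15 ± 0.05 (0.067), then -0.15 ± 0.05 (0.043). Leaving out any 1 of the 4 libraries of 24 h ended that call, with log2 fold changes from -0.15 to -0.14 and adjusted p from 0.18 to 0.22, as did limma on log2(RPKM + 0.1) (-0.16, adjusted p = 0.064) and on log2(RPKM + 1) (-0.16, adjusted p = 0.058). At 12 h, 11 of 13 alternative fits did not call Nrp1, with 0.09 (adjusted p = 0.54) without Dox replicate 1 of 12 h, and 2 called it higher, DESeq2 (0.15, adjusted p = 0.027) and the fit without Dox replicate 2 of 12 h (0.22, adjusted p = 0.018).

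Nrp2 (ENSMUSG00000025969, chromosome 1, 62703285 to 62818695, plus strand), the neuropilin that also serves VEGFC and FLT4, went the other way. Untreated libraries held 39.6 and 39.7 RPKM at 6 h, 35.0 and 37.6 RPKM at 12 h, and 36.1 and 35.3 RPKM at 24 h. Dox libraries held 42.4 and 42.0, then 43.7 and 43.3, then 47.6 and 53.9 RPKM, with no overlap at any hour. The log2 fold change was 0.11 ± 0.05 at 6 h (adjusted p = 0.49), 0.26 ± 0.05 at 12 h (0.0030) and 0.52 ± 0.05 at 24 h (2.4e-08). It grew by 0.41 ± 0.08 between 6 and 24 h (adjusted p = 0.0016). Limma on log2(RPKM + 1) did not call the 12 h difference (0.25, adjusted p = 0.052).

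Within a library, the ratio of 2 genes does not depend on how libraries are scaled. Its size does depend on the gene lengths behind the RPKM values, which are the same for every library. The ratio of Nrp1 to Nrp2 RPKM in untreated cells was 1.96 and 1.96 at 6 h, 2.77 and 2.54 at 12 h, and 3.67 and 3.71 at 24 h. With Dox it was 1.80 and 1.77, then 2.55 and 2.35, then 2.47 and 2.19. At 24 h both Dox libraries were below both untreated libraries by more than the spread within either group, a mean of 2.33 against 3.69. The ratio of Kdr to Flt1 at 24 h was 4.09 and 3.96 without and 3.43 and 3.41 with Dox. No test was run on these ratios.

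**Figure D3:**
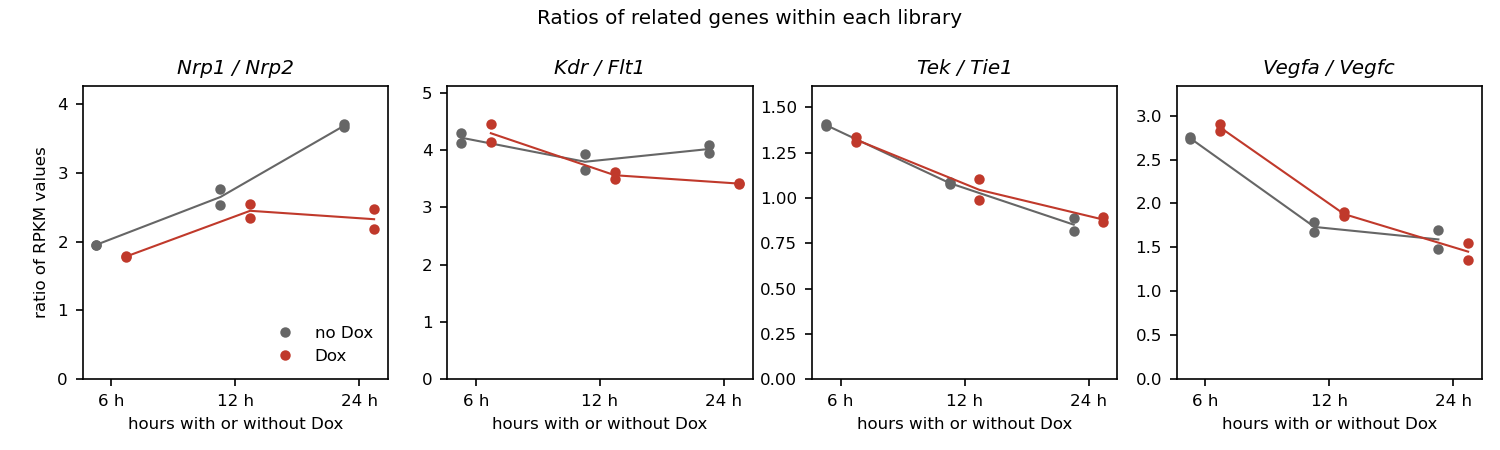
Ratio of the RPKM values of 2 related genes within each library (y axis, from 0) at 6, 12 and 24 h (x axis). Points are libraries, grey without and red with Dox, and lines join means of 2. The Nrp1 to Nrp2 ratio separates at 24 h (3.67 and 3.71 against 2.47 and 2.19), while the Tek to Tie1 ratio declines in both series and overlaps at 12 and 24 h.

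Tek (ENSMUSG00000006386, chromosome 4, 94739289 to 94874976, plus strand), the angiopoietin receptor gene, declined with time in both series. Untreated libraries held 57.2 and 58.5 RPKM at 6 h, 43.8 and 47.8 RPKM at 12 h, and 32.6 and 33.1 RPKM at 24 h. Dox libraries held 60.6 and 64.1, then 50.04 and 54.6, then 40.1 and 41.4 RPKM. They were above the untreated libraries at each hour and still below the untreated level of 6 h at 24 h. The log2 fold changes were 0.13 ± 0.05 (adjusted p = 0.36), 0.18 ± 0.05 (0.039) and 0.32 ± 0.06 (0.00011). Neither the fit lacking untreated replicate 1 of 12 h (0.13, adjusted p = 0.32) nor that lacking Dox replicate 2 (0.13, adjusted p = 0.30) kept the 12 h call, and the 24 h call was kept in 13 of 13 fits.

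Tie1 (ENSMUSG00000033191, chromosome 4, 118471191 to 118490061, minus strand), which encodes the partner of TEK, was called at all 3 hours. Without Dox it stood at 40.9 and 41.5 RPKM at 6 h, 40.3 and 44.3 RPKM at 12 h, and 39.9 and 37.2 RPKM at 24 h. With Dox it stood at 45.3 and 49.0, then 50.7 and 49.5, then 45.0 and 47.6 RPKM. The Dox libraries were higher at each hour by a similar amount. The log2 fold changes were 0.22 ± 0.06 (adjusted p = 0.048), 0.24 ± 0.06 (0.0084) and 0.28 ± 0.06 (0.00087), and the change of the effect from 6 to 24 h was not called (0.06 ± 0.08, adjusted p = 0.87). At 6 h, 10 of 13 alternative fits did not call it. The adjusted p ran from 0.018 to 0.55 over the 13, and the log2 fold change was 0.15 without Dox replicate 2 of 6 h. At 12 h the gene was not called when untreated replicate 1 (0.18, adjusted p = 0.13) or Dox replicate 1 (0.23, adjusted p = 0.079) was left out.

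In untreated cells Tek was lower at each later hour, Kdr, Flt1 and Flt4 were lower at 24 than at 12 h, and Nrp1 was higher at each later hour. Between 6 and 12 h, 4 of 10 genes changed, 2 up and 2 down, against 7.46% of all tested genes (4.39% higher and 3.07% lower): Tek (-0.34 ± 0.05, adjusted p = 0.00012) and Vegfa (-0.25 ± 0.06, 0.0051) fell, and Nrp1 (0.30 ± 0.05, 0.00012) and Vegfc rose. Kdr was not called (-0.17 ± 0.05, adjusted p = 0.052) and 6 of 13 alternative fits called it lower. Without replicate 2 of 12 h it was at -0.27 (0.0050), and without replicate 1 of 12 h at -0.09 (0.51). Vegfa lost its call without replicate 2 of 6 h (-0.23, adjusted p = 0.058) or of 12 h (-0.23, 0.070). Between 12 and 24 h, 6 of 10 changed, 1 up and 5 down, against 22.4% of all tested genes (12.2% higher and 10.2% lower). Tek (-0.47 ± 0.06, adjusted p = 2.5e-07), Flt1 (-0.32 ± 0.05, 3.9e-05), Flt4, Kdr (-0.24 ± 0.05, 0.0017) and Vegfa (-0.20 ± 0.06, 0.012) fell, and Nrp1 rose by 0.46 ± 0.05 (3.2e-08). The Kdr call was lost without untreated replicate 2 of 12 h (-0.14, adjusted p = 0.094), and the Vegfa call without replicate 1 of 12 h (-0.19, 0.057) or replicate 2 of 24 h (-0.13, 0.25). Tie1 was not called (-0.13 ± 0.06, adjusted p = 0.097) and 1 of 13 alternative fits called it, that without replicate 1 of 12 h (-0.21, 0.0185). Without replicate 2 of 12 h it was at -0.05 (0.67). The libraries of the earlier and later hour did not overlap in CPM for 6 and 7 of the 10 genes, against 49% and 60.5% of all tested genes. These comparisons share their untreated libraries with the Dox comparisons. Markers of other cells moved in the same untreated libraries between 12 and 24 h: 7 of 8 macrophage markers (median log2 fold change 1.77), 6 of 8 blood markers (1.146) and 4 of 8 mural and mesenchymal markers (0.37) were higher, and 4 of 8 endothelial markers were lower (-0.17). In the other direction, 1 macrophage and 1 mural marker were lower and 1 endothelial marker was higher. Their part in these changes was not tested.

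Across the 10 genes the order of RPKM levels was similar in all groups, from Nrp1 and Kdr at the top to Angpt2 at the bottom, which has 0.536 to 2.01 RPKM. Tek ranked below Nrp1 and Kdr alone at 6 h, and below Nrp2 and Tie1 as well at 24 h, in both series. The libraries of Tek and Tie1 overlapped at 12 h without and with Dox, so their order there is not beyond the spread, and likewise Flt1 and Vegfc with Dox at 12 h, Vegfc and Flt1 without Dox at 24 h, and Nrp2 and Tie1 with Dox at 24 h. Other neighbours in the order did not overlap within their group. The order also rests on the gene lengths behind the RPKM values. The ratio of RPKM to CPM puts them between 2.05 kb for Vegfc and 12.9 kb for Nrp2. In CPM, without that scaling, the means of untreated cells at 6 h were 584 for Kdr, 510 for Nrp2 and 498 for Nrp1.

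Of the 8 endothelial markers, 1, 4 and 5 were higher with Dox at 6, 12 and 24 h and the others were not called. Of all tested genes, 0.821%, 3.26% and 4.5% were called higher at these hours. The 3 markers not called at 24 h had estimates below 0: Cldn5 (-0.15 ± 0.08), Ramp2 (-0.18 ± 0.07) and Emcn (-0.24 ± 0.16). The summed level of the 8 markers, of which Cdh5 is the largest part, was 301 to 306 RPKM without and 369 to 377 RPKM with Dox at 24 h. It was 321 to 347 against 384 to 408 RPKM at 12 h, and 363 to 368 against 382 to 418 RPKM at 6 h. Set against that sum within each library, the receptor and ligand genes differed. None of the 10 genes is among the 8 markers, so a share here is a gene's RPKM as a percent of a sum without it. At 24 h Vegfa was 6.97% and 7.57% of the sum without and 9.09% and 9.51% with Dox, and Vegfc was 4.47% and 4.69% without and 5.87% and 7.02% with Dox. For Tek the shares were 10.6% and 11.0% without and 10.9% and 11.0% with Dox, and for Tie1 12.4% and 13.03% against 12.2% and 12.6%, overlapping in both cases. Kdr went from a mean of 18.2% to 15.8%, Flt4 from 2.58% to 2.04% and Nrp1 from 43.4% to 31.6%, with no overlap. Without Cdh5 in the sum, Kdr, Flt4 and Nrp1 were 0.948, 0.865 and 0.797 times their untreated share at 24 h, against 0.865, 0.790 and 0.728 with it. Likewise without Cdh5, Tek, Tie1 and Flt1 were 1.11, 1.07 and 1.12 times their untreated share at 24 h, and Vegfa, Vegfc and Angpt2 1.401, 1.54 and 1.57 times.

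**Figure D4:**
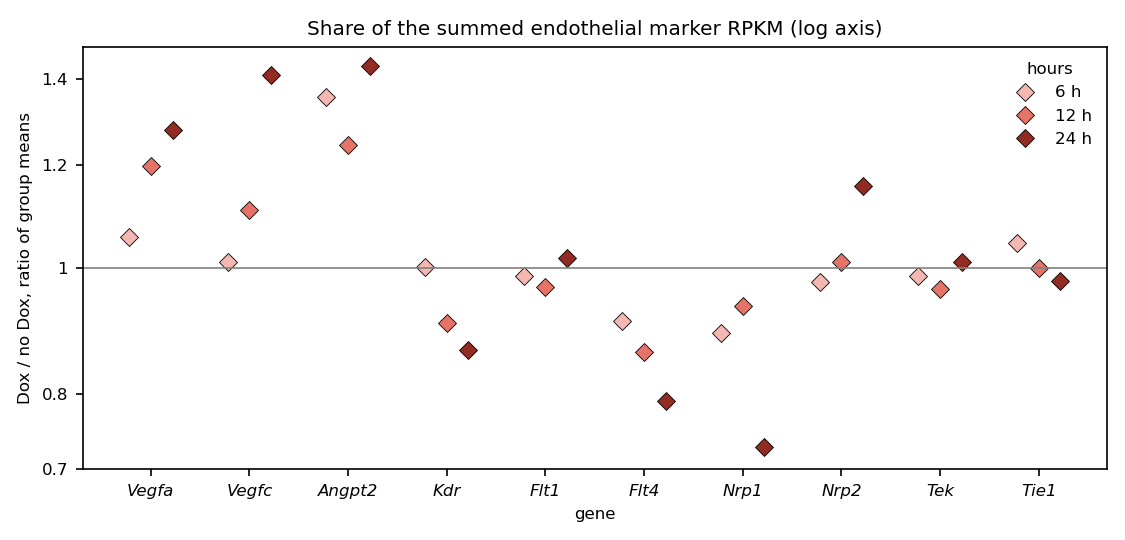
Each gene's RPKM set against the summed RPKM of 8 endothelial markers, which do not include it. The y axis is the ratio of the Dox mean to the untreated mean (log scale, 1 marked by a line). Genes are on the x axis, with a diamond for each of 6, 12 and 24 h. Vegfa, Vegfc, Angpt2 and Nrp2 are above 1 at 24 h (1.28, 1.41, 1.43 and 1.16), Flt1, Tek and Tie1 are near 1 (1.02, 1.01 and 0.978), and Kdr, Flt4 and Nrp1 are below it (0.865, 0.790 and 0.728).

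Mural and mesenchymal markers moved beside the Nrp1 result at 24 h: 5 of 8 were lower with Dox and 3 were not called. Of all tested genes, 6.52% were called lower at that hour. The summed level of the 8 markers was 3546 to 3635 RPKM without and 3535 to 3537 RPKM with Dox. Most of that sum was Acta2, which was not called, with means of 2683 RPKM without and 2732 RPKM with Dox. Among the 5 lower markers, Col1a1 went from a mean of 369 to 281 RPKM and Postn from 92.0 to 65.2 RPKM. The part of these markers in the Nrp1 difference was not tested. By Pearson correlation of log2 CPM over the 12 libraries, the gene most like Nrp1 was the collagen gene Col1a2 (r = 0.991), followed by Srgap3 (0.990) and Lpin1 (0.989), among 9363 genes compared. The gene most like Vegfa was Cdh5, the cadherin of endothelial junctions (0.971), followed by Rhbdf1 (0.968) and Hdac7 (0.964). Tie1 was most like Notch1 (0.972), Cd38 (0.958) and Gja4 (0.948), and Tek most like Bzw2 (0.987), Sost (0.981) and Bmp6 (0.981). Nrp2 was most like Slc6a6 (0.970), Lphn2 (0.951) and Stk39 (0.947). Flt1 was closest to Nxpe3 (0.966), Vegfc to Agpat3 (0.964) and Angpt2 to Prex2 (0.941). Among the 10 genes themselves, Kdr and Tek had the highest correlation (0.973) and Nrp1 and Tek the lowest (-0.922). These values describe 12 libraries that share hours and treatment, and each was picked as the highest of many.

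The other ligand genes of the system were not called with Dox. Of Vegfb (20.3 to 25.9 RPKM), Pgf (12.6 to 17.2 RPKM), Angpt1 (5.31 to 9.13 RPKM), Angpt4 (0.885 to 1.58 RPKM) and Figf, which encodes VEGFD (0.247 to 0.523 RPKM), edgeR called 0 of 5 at any of the 3 hours. At an unadjusted p under 0.05 the counts were 1, 0 and 0, and DESeq2 and limma on log2(RPKM + 0.1) called 0 at each hour. Their median log2 fold change at 24 h was -0.08. Of all tested genes, 11% were called at 24 h (4.5% higher and 6.52% lower). In 12 genes of class 3 semaphorins and plexins, many of which bind neuropilins, 1 was higher and 11 were not called at that hour. That gene was Sema3g, an endothelial semaphorin, with log2 fold changes of 0.35 ± 0.09 (adjusted p = 0.036), 0.43 ± 0.08 (0.00067) and 0.63 ± 0.08 (6.8e-07). The 6 h call was lost with DESeq2 (0.34, adjusted p = 0.059) and with limma (0.31, adjusted p = 0.23). Sema3c was lower at 12 h (-0.53 ± 0.14, adjusted p = 0.018), and neither DESeq2 (adjusted p = 0.053) nor limma (0.15) called it. In this and the next lists, limma stands for limma-trend on log2(RPKM + 0.1).

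Of 17 genes that regulate or partner these receptors, 3 were higher, 5 lower and 9 not called at 24 h, against 11% of all tested genes called, with a median log2 fold change of 0.05. Ptprb, the phosphatase VE-PTP that dampens TEK and KDR signals, rose by 0.44 ± 0.06 (adjusted p = 1.3e-06). Efnb2, an arterial ephrin needed for VEGF receptor uptake, rose at all 3 hours, by 0.38, 0.40 and 0.42 on the log2 scale, and the endocytic adaptor gene Epn2 rose by 0.20 at 24 h. Dab2 (-0.36 ± 0.05), another endocytic adaptor gene, fell at 24 h, as did Svep1 (-0.43 ± 0.08), a matrix gene, the heparan sulfate proteoglycan genes Gpc1 (-0.42) and Sdc2 (-0.18), and Ccbe1 (-1.13 ± 0.31, adjusted p = 0.013), whose product is needed to process VEGFC. Cbl, a ubiquitin ligase gene, was higher at 12 h (0.27, adjusted p = 0.04997). Neither DESeq2 nor limma called Ccbe1 at 24 h (adjusted p = 0.35 and 0.14) or Cbl at 12 h (0.074 and 0.19), DESeq2 did not call Sdc2 at 24 h (0.053), and limma did not call Epn2 (0.12) or Gpc1 (0.0505).

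Among 36 tested genes of signalling below the receptors, 3 were higher, 3 lower and 30 not called at 24 h, against 11% of all tested genes called, and the median log2 fold change was -0.003. Mapk3, the kinase ERK1, rose by 0.24 ± 0.05 (adjusted p = 0.0019), Shb, an adaptor of KDR, by 0.31 ± 0.10 (0.039) and Plcg1, the phospholipase that KDR activates, by 0.16 ± 0.05 (0.048). Prkca (-0.96 ± 0.10, adjusted p = 3.7e-08), Dok2, an adaptor of TEK that blood cells also use (-1.21 ± 0.19, 3.6e-05), and Pxn (-0.22 ± 0.06, 0.020) fell. Limma did not call Shb (adjusted p = 0.071), Plcg1 (0.091) or Pxn (0.078) at 24 h, and DESeq2 did not call Shb (0.086). Blood and macrophage markers moved beside these falls: 7 of 8 blood markers (median log2 fold change -1.42) and 6 of 8 macrophage markers (-1.43) were lower at 24 h. Their part was not tested. Nck1 was lower at 12 h (-0.30 ± 0.08, adjusted p = 0.019), a call that limma did not make (0.15).

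Of 20 genes that VEGF is known to induce, 6 were higher and 14 not called at 24 h, against 4.5% of all tested genes called higher, with a median log2 fold change of 0.09. They were the ERK phosphatase genes Dusp6 (0.46 ± 0.06, adjusted p = 1.6e-06), Dusp5 (0.37 ± 0.08) and Dusp4 (0.31 ± 0.06), the Notch ligand gene Dll4 (0.54 ± 0.07, 1.6e-06), Nfatc1 (0.23 ± 0.06) and the protease gene Adamts1 (0.20 ± 0.06). Adamts1 and Dusp6 were already higher at 6 h (0.28 ± 0.06 and 0.27 ± 0.06), calls that DESeq2 made and limma did not (adjusted p = 0.084 and 0.10). Limma also did not call Adamts1 (0.084) or Nfatc1 (0.073) at 24 h. Several of these genes answer to other signals as well.

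Of 13 tested genes that low oxygen induces, as it does Vegfa, 2 were lower and 11 not called at 24 h. Their median log2 fold change was -0.19. At that hour 11% of all tested genes were called (4.5% higher and 6.52% lower). The 2 lower genes were Ndrg1 (-0.49 ± 0.09, adjusted p = 0.00014) and the glucose transporter gene Slc2a1 (-0.22 ± 0.05, 0.0011). At 12 h Pdk1 (0.55 ± 0.08) and Egln1 (0.29 ± 0.07) were higher and 11 were not called, against 6.76% of all tested genes called. Of the 4 hypoxia factor genes, Epas1, which encodes the endothelial factor HIF2A, rose by 0.31 ± 0.07 at 24 h (adjusted p = 0.0021) and 3 were not called. Limma did not call Epas1 (adjusted p = 0.064) or Slc2a1 (0.083) at 24 h, or Egln1 at 12 h (0.11). Among 17 factors of endothelium and early blood, 5 were higher at 24 h, Sox7 among them, 3 were lower and 9 were not called. The share over all tested genes is the same 11% as above. Ets1 (0.40 ± 0.05), Fli1 (0.37 ± 0.07), Gata2 (0.53 ± 0.09) and Hhex (0.36 ± 0.10) rose, and Mef2c (-0.50 ± 0.08), Tal1 (-0.33 ± 0.06) and Sox18 (-0.19 ± 0.06, adjusted p = 0.044) fell. Limma did not call Hhex (adjusted p = 0.092) or Sox18 (0.060), and DESeq2 did not call Sox18 (0.076).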

How the data were processed

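For 12 libraries the authors deposited a table of unnormalized read counts over 41128 Ensembl genes. A second deposited table gives RPKM values made by the authors, and for each of the 10 genes the ratio of RPKM to CPM was constant over libraries within 2.28%. Per the labels' protocols, each library used 200 ng of RNA, strand-specific preparation, 14 cycles of PCR and 75-base single reads. The submitters' processing notes name GRCm38, edgeR 3.8.5, R 3.1.0, SAMtools 0.1.19, Bowtie2 2.21 and bcl2fastq 2.16.0.10. Which program counted reads, with which strand setting and annotation, is not given in the sources used here.

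Counts were fitted in edgeR 4.0.16 (R 4.3.3). The filterByExpr filter left 15347 genes, TMM scaled the libraries, and 1 quasi-likelihood model covered all 12 libraries, giving each group its own mean, with 6 residual degrees of freedom and Benjamini-Hochberg adjustment over those genes. Intervals are 95%. Levels are RPKM per library. On simulated counts, the 24 h comparison recovered 53 of 67 genes (79.1%) given a 1.5-fold change among 15083 genes. Of all its calls, 6.09% were false. Changes as small as the 1.07-fold estimate for Kdr at 24 h were not simulated.

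The 10 genes and all lists were chosen with earlier results of these data known. Named genes are the 10, Sox7, up to 4 called genes per pathway list by adjusted p, called genes that move against most of their list, and the 3 genes most alike to each called gene among those whose log2 CPM averaged 3 or more. Mcph1, the marker genes, the other ligand genes, Fli1, Gata2, Hhex, Dusp5, Nfatc1, Pxn, Gpc1, Sdc2 and Ccbe1 were named after their values were seen, and the shares of the endothelial marker sum were added then. Replicates differed by more than counting noise (chi-square per degree of freedom 2.63 to 4.61). Alternatives were other scalings (RLE, upper quartile), other filters (none, or 1 CPM in 4 libraries), DESeq2 1.42.0, limma-trend 3.58.1 on log2(RPKM + 0.1) or log2(RPKM + 1), a replicate block, each library left out and, added after the totals were seen, depth class as a term, and DESeq2 and limma read gene by gene for the other lists.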

Additional observations from a re-analysis of the deposited data

Results flagged for a closer look

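The Dox effect differed between 24 h and 6 h for 3 of the 10 genes by a test of the difference itself in edgeR's quasi-likelihood model, against 2.08% of all 15347 tested genes. The change on the log2 scale was 0.41 for Nrp2 (adjusted p = 0.0016), 0.44 for Vegfa (adjusted p = 0.0013) and 0.62 for Vegfc (adjusted p = 0.0059). In each case both Dox libraries were above both untreated libraries at both hours, by more at 24 h. For the other 7 genes the change was not called, with estimates from -0.13 for Nrp1 to 0.26 for Angpt2. Limma on log2(RPKM + 0.1) did not call the change for Nrp2 (0.41, adjusted p = 0.054).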

How the results depend on the processing

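Of 820 refits of single genes among the 10, 744 kept direction and side of the threshold, 48 lost a call and 9 gained one. The estimate changed sign in 19, called in neither fit in any of them, such as Angpt2 for the change of the Dox effect (0.26, and -0.25 without untreated replicate 1 of 6 h). Of 62 Dox calls of genes in the pathway and factor lists, DESeq2 made 53 and limma on log2(RPKM + 0.1) 33. Of 108 counts of called genes under settings other than a left-out library, 93 stayed within 1.5 times. At 6 h, 1 of the 10 genes was called with RLE scaling, upper-quartile scaling, the stricter filter or depth class as a term, and 0 with limma at either pseudocount, against 2. At 12 h limma called 2 of the 10 at either pseudocount, against 6. Over all genes, limma on log2(RPKM + 0.1) and on log2(RPKM + 1) called 78 and 67 at 6 h (main value 236), 354 and 365 at 12 h (1038), and 531 and 519 between untreated 6 and 12 h (1145). For the change of the Dox effect, limma on log2(RPKM + 0.1) called 139 (319). The cause was not tested.

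With 1 library left out, which leaves a lone sample assumed to vary like the other groups, all genes called ran from 86 to 180 at 6 h, 423 to 754 at 12 h, 1084 to 1497 at 24 h, 175 to 280 for the change, 401 to 698 for untreated 12 against 6 h and 2103 to 2604 for 24 against 12 h. Among the 10 genes the counts were 0 to 0, 3 to 6, 6 to 7, 3 to 3, 3 to 4 and 4 to 6 in the same order. The replicate numbers are shared only as numbers: deviations of same-numbered libraries correlated from -0.03 to 0.05 over genes. With the replicate block, 249, 1071 and 1722 genes were called at 6, 12 and 24 h, 347 for the change, and 1141 and 3427 in untreated cells. Among the 10 genes the block changed 1 call, Kdr in untreated cells at 12 against 6 h (-0.17, adjusted p = 0.027). Angpt2 had the fewest counts of the 10 genes, 29 to 237 per library, and SEs of 0.19 to 0.23 in the Dox comparisons, and on log2(RPKM + 1) its 24 h difference was 0.49.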
